A study of Mus musculus with 28 samples.

Results

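The miR-15/16 family was followed in the cartilage and subchondral bone of mouse knees after a surgical destabilization of the medial meniscus (DMM), which leads to osteoarthritis. The members were 9 rows picked by name from a table of 569 miRNA rows: the 5p arms mmu-miR-15a-5p, mmu-miR-15b-5p, mmu-miR-16-5p, mmu-miR-195a-5p, mmu-miR-322-5p and mmu-miR-497a-5p, and as 3p arms mmu-miR-195a-3p, mmu-miR-16-1-3p and mmu-miR-15a-3p. The prefix mmu (mouse) is left out from here on. They were chosen with their cartilage values known, because the 5p arms were lower and the 3p arms higher after DMM there. The cartilage differences between DMM and sham are therefore given as a description, counts of calls included, and tests are read only for bone. Time after sham surgery in cartilage uses the same sham arrays as that choice, so its values are a description too. All 9 rows held a value on every array of both tissues, where 438 rows did so in cartilage and 490 in bone.

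Each array measured the RNA of the medial tibial plateau on an Agilent mouse miRNA microarray, in tissue cut out of frozen, decalcified sections by laser. All mice were male wild type, 10 to 12 weeks old at surgery, and were operated on in both knees. The strain label of the samples is C57BL6, while the treatment protocol also names Jaffa mice. In DMM mice the ligament between medial meniscus and tibia was cut; in sham mice the same ligament was exposed and left whole. Tissue was taken 1 or 6 weeks after surgery. The cartilage groups were DMM at 1 week, DMM at 6 weeks, sham at 1 week and sham at 6 weeks, with 3 arrays each, and every cartilage array held a pool of 3 mice. The bone groups had the same 4 designs, with 4 arrays each, and every bone array held 1 mouse. Cartilage and bone came from the same mice, but the labels do not tie pools to mice. There was no unoperated group, so sham mice carry the effects of surgery too.

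The tissue was taken from the source label, since another label calls the cartilage samples bone. The 4 cartilage markers miR-140-5p, miR-140-3p, miR-455-5p and miR-455-3p had a summed log2 signal of 13.6 to 14.2 on the cartilage arrays. In bone, where 3 of the 4 were measured, the sum was 9.54 to 10.9. Values are log2 signals as deposited, so a difference of 1 is a doubling of signal. Signals of different miRNAs come from different probes and were not set against each other. In whole tissue, fewer cells that hold a miRNA and less of it per cell cannot be told apart.

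A miRNA hairpin is cut by Dicer into a duplex of a 5p and a 3p strand, of which the strand that is loaded into Argonaute guides silencing and the other is mostly degraded. Target mRNAs are recognised chiefly through the seed, bases 2 to 8 of the loaded strand. In the miR-15/16 family the 5p strand is the usual guide, and the family is known for repressing mRNAs of cyclins and of the survival factor Bcl2. Human MIR15A and MIR16-1 lie together at a locus that is often deleted in chronic lymphocytic leukaemia.

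The mature sequences, from RefSeq on GRCm38.p6, show why the arms were read as separate groups. All 6 of the 5p arms carry the same seed, written in capitals:
miR-15a-5p: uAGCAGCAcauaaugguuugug
miR-15b-5p: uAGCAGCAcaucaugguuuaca
miR-16-5p: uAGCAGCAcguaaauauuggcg
miR-195a-5p: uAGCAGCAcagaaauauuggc
miR-322-5p: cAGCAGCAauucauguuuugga
miR-497a-5p: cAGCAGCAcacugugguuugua

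The 3p arms have no common seed. The 3 member arms and miR-16-2-3p, the 3p arm of the other miR-16 hairpin, hold 4 different ones, again in capitals:
miR-15a-3p: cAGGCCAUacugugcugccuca
miR-16-1-3p: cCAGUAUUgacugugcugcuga
miR-195a-3p: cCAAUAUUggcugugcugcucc
miR-16-2-3p: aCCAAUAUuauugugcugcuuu

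Outside the seed the 3p arms share a run of their own. All 4 of these 3p arms hold the run UGUGCUGC, which only 4 of the 1679 mature names in the RefSeq table hold (0.238%), and those 4 are the arms shown. Its last 7 bases, GUGCUGC, are the reverse complement of GCAGCAC, which 5 of the 6 member 5p arms hold, all but miR-322-5p. Base by base from the 5′ end, the 5p arms were 50.0% to 90.5% identical, with miR-16-5p and miR-195a-5p the closest pair at 19 of 21 positions. The 3p arms ranged more widely, from 22.7% to 81.8%, and miR-16-1-3p and miR-195a-3p were the closest. How well the probes separate arms this alike was not tested.

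The members come from 4 loci. Mir15a and Mir16-1 lie on the minus strand of chromosome 14 inside the noncoding gene Dleu2, with the arms of miR-15a at chr14:61632075-61632096 (5p) and chr14:61632038-61632059 (3p). Mir15b and Mir16-2 lie on chromosome 3 inside Smc4, which encodes a condensin subunit. Mir195a and Mir497 are neighbours on chromosome 11, and Mir322 lies on chromosome X inside C430049B03Rik. miR-16-5p is made from both Mir16-1 and Mir16-2, so its signal cannot be assigned to either, whereas miR-16-1-3p belongs to Mir16-1 alone. The Mir16-1 and Mir195a hairpins are shown to place the arms, which are in capitals; Mir16-1 lies at chr14:61631880-61631972 (minus strand) and Mir195a at chr11:70235042-70235135 (plus strand):
Mir16-1: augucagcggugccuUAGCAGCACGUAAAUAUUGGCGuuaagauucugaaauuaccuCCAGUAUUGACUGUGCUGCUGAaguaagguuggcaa
Mir195a: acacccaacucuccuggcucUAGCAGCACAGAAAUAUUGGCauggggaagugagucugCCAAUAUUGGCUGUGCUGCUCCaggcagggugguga

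In cartilage all 6 of the 5p arms had lower means after DMM than after sham surgery at both weeks, and all 3 of the 3p arms had higher means. The 5p differences (DMM minus sham, log2) were -0.34 to -0.24 at 1 week and -0.55 to -0.34 at 6 weeks, with medians of -0.31 and -0.46. The 3p differences were 0.47 to 0.80 and 0.46 to 0.77, with medians of 0.66 and 0.56. The medians over all 438 rows were -0.02 and -0.04, with 54.3% and 55.7% of rows below 0. Since these values chose the members, they are a description.

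Array quality bears on the reading of single members. Cartilage arrays had medians of 6.26 to 6.32 and a median correlation with their own group of 0.968 to 0.991. In a fit that counts stray arrays less, their weights ran from 0.258 (sham 6 weeks replicate 1) to 3.08 (sham 1 week replicate 1). The bone arrays spread more: sham 1 week replicate 1 correlated with its group at 0.883 and the other bone arrays at 0.926 to 0.984. A score was taken for the main pattern in which bone arrays differ within their groups, computed without the family. In cartilage it was 1.08 to 1.64 in DMM and -0.60 to -0.34 in sham at 1 week, and -0.62 to 0.68 in DMM and -1.25 to -0.87 in sham at 6 weeks. That score moves with surgery in cartilage, and its part in the differences was not tested; values with it in the fit are given with each group of arms.

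miR-15a-5p, cut from the Dleu2 locus, had log2 signals of 9.60, 9.26 and 9.25 in DMM cartilage at 1 week, against 9.58, 9.49 and 9.77 in sham cartilage. At 6 weeks it had 9.20, 9.32 and 9.41 in DMM cartilage, against 9.76, 9.98 and 9.84 in sham cartilage. The groups overlapped at 1 week through the DMM array at 9.60, and did not overlap at 6 weeks. The differences were -0.24 ± 0.12 and -0.55 ± 0.12 (SE, n = 3 each).

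miR-15b-5p, from the Smc4 locus, had 8.50, 8.50 and 8.21 in DMM cartilage at 1 week, against 8.73, 8.82 and 8.67 in sham cartilage. Its 6-week values were 8.30, 8.61 and 8.66 in DMM cartilage, against 9.07, 9.0 and 9.11 in sham cartilage. Every DMM array lay below every sham array of its week, which among the 6 guide arms held at both weeks for miR-15b-5p alone. Its differences were -0.34 ± 0.12 and -0.54 ± 0.12 (SE).

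miR-16-5p, the product of both miR-16 hairpins, had 9.81, 9.74 and 9.34 in DMM cartilage at 1 week, against 10.00, 9.77 and 10.10 in sham cartilage. The later arrays, at 6 weeks, had 9.41, 9.60 and 9.57 in DMM cartilage, against 9.81, 10.18 and 9.84 in sham cartilage. A single DMM array at 9.81 reached into the sham range at 1 week, and the groups were apart at 6 weeks. The differences were -0.33 ± 0.15 and -0.42 ± 0.15 (SE).

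miR-195a-5p and miR-497a-5p, the neighbours on chromosome 11, shared their pattern of arrays. miR-195a-5p had 8.83, 8.66 and 8.57 in DMM cartilage at 1 week, against 9.01, 8.89 and 9.11 in sham cartilage. After 6 weeks it had 8.27, 8.67 and 9.11 in DMM cartilage, against 9.10, 9.23 and 9.11 in sham cartilage. The groups were apart at 1 week. At 6 weeks DMM replicate 3 stood with the sham arrays, and the 6-week SD of miR-195a-5p was 0.42 in DMM and 0.07 in sham cartilage.

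miR-497a-5p had 8.21, 7.87 and 7.81 in DMM cartilage at 1 week, against 8.26, 8.12 and 8.36 in sham cartilage. At 6 weeks it had 7.48, 7.94 and 8.38 in DMM cartilage, against 8.40, 8.35 and 8.44 in sham cartilage. The same DMM array was again at the sham level, and it was also the DMM array with the lowest pattern score, -0.62. The differences of miR-497a-5p were -0.28 ± 0.19 and -0.46 ± 0.19 (SE), and those of miR-195a-5p -0.32 ± 0.17 and -0.46 ± 0.17 (SE).

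miR-322-5p, the counterpart of human miR-424, had 5.82, 5.48 and 5.45 in DMM cartilage at 1 week, against 5.76, 5.87 and 6.03 in sham cartilage. Its 6-week values were 5.50, 5.53 and 5.51 in DMM cartilage, against 5.60, 5.90 and 6.06 in sham cartilage. The 3 DMM arrays at 6 weeks were nearly equal and below all sham arrays, while at 1 week the groups overlapped. The lowest 5% of rows on the cartilage arrays ended at 5.30 to 5.46, so the DMM values sat close to the bottom of the measured range.

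The 3p arms had the opposite arrangement. miR-15a-3p had 5.70, 5.90 and 6.01 in DMM cartilage at 1 week, against 5.47, 5.38 and 5.35 in sham cartilage. The later arrays, at 6 weeks, had 5.74, 5.97 and 5.81 in DMM cartilage, against 5.65, 5.31 and 5.18 in sham cartilage. DMM arrays were above sham arrays at both weeks, and sham 6 weeks replicate 1, at 5.65, came nearest to them. On sham 6 weeks replicates 2 and 3 the lowest 5% of rows ended at 5.36 and 5.30, and miR-15a-3p lay below these levels. On sham 1 week replicates 1, 2 and 3 the lowest 5% ended at 5.42, 5.37 and 5.44. There miR-15a-3p lay below this level on replicate 3 and close above it on replicates 1 and 2.

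miR-16-1-3p had 5.88, 6.07 and 6.24 in DMM cartilage at 1 week, against 5.45, 5.38 and 5.38 in sham cartilage. After 6 weeks it had 5.90, 6.02 and 5.89 in DMM cartilage, against 5.68, 5.29 and 5.16 in sham cartilage. The groups did not overlap at either week. On sham 6 weeks replicates 2 and 3 miR-16-1-3p also lay among the lowest 5% of rows. The same was so on sham 1 week replicate 3, and on replicates 1 and 2 of that group miR-16-1-3p lay close above that level. The differences were 0.66 ± 0.14 and 0.56 ± 0.14 (SE, n = 3 each), and those of miR-15a-3p were 0.47 ± 0.13 and 0.46 ± 0.13 (SE).

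miR-195a-3p had the largest differences of the 9 members, 0.80 ± 0.18 at 1 week and 0.77 ± 0.18 at 6 weeks (SE), which are 1.74-fold and 1.71-fold. It had 6.42, 6.57 and 6.76 in DMM cartilage at 1 week, against 5.85, 5.75 and 5.75 in sham cartilage. At 6 weeks it had 6.45, 6.81 and 6.53 in DMM cartilage, against 6.27, 5.72 and 5.49 in sham cartilage. The DMM arrays lay above all sham arrays at each week, and sham 6 weeks replicate 1, at 6.27, was again the highest of its group.

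**Figure D1:**
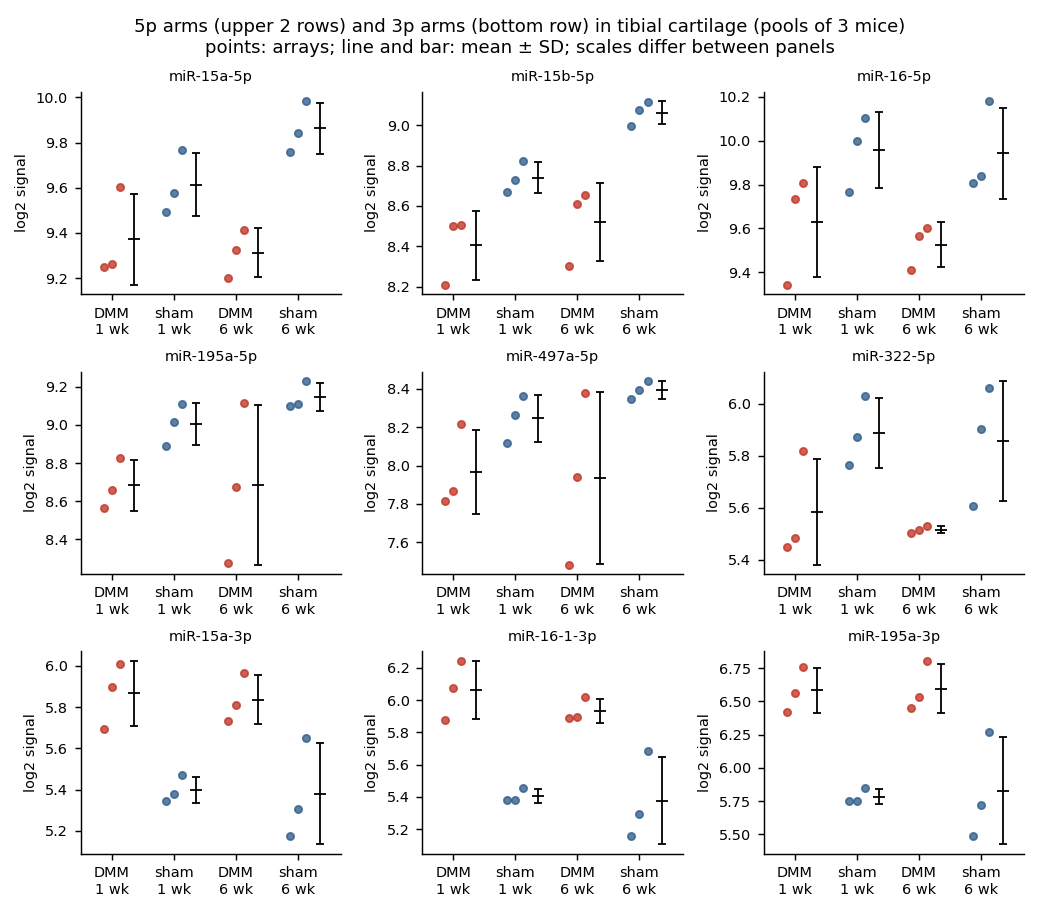
Log2 signal (vertical axes, scales differ) of the 6 5p arms in the upper rows and the 3 3p arms in the bottom row, for DMM and sham cartilage at 1 and 6 weeks. Points are arrays of 3 pooled mice, and the line and bar are the mean ± SD; the DMM means are lower for the 5p arms, with overlapping points in some groups, and all DMM points are above the sham points of their week for the 3p arms.

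At an adjusted p under 0.05 in the limma fit, all 3 of the 3p arms were called higher in DMM cartilage at 1 week, where 15.8% of the 438 rows were called higher, and none of the 6 5p arms was called lower, where 12.1% of rows were. At 6 weeks the 3 3p arms were called again (9.59% of rows called higher), and 2 of the 6 5p arms, miR-15a-5p and miR-15b-5p, were called lower (7.31% of rows). Groups without overlap, DMM below sham, were found for 2 of 6 5p arms at 1 week, against 23.3% of rows, and for 4 of 6 at 6 weeks, against 18.0%. For the 3p arms it was 3 of 3 at each week with DMM above sham, against 24.9% and 17.4% of rows. Calls of either direction made up 27.9% of rows at 1 week and 16.9% at 6 weeks. Nothing is read from these counts, since the contrast chose the members.

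These counts, which remain a description, changed when single arrays were left out. At 6 weeks the number of 3p arms called was 0 without DMM replicate 2, sham replicate 2 or sham replicate 3 of that week, though their differences stayed between 0.36 and 0.72 in these fits. The number of 5p arms called was 1 without DMM 6 weeks replicate 2 or sham 6 weeks replicate 2, 3 without DMM 1 week replicate 3, and 4 without DMM 6 weeks replicate 3 or sham 6 weeks replicate 1. At 1 week it was 2 without DMM 1 week replicate 1 and 1 without DMM 6 weeks replicate 1. The 1-week count for the 3p arms was 2 without DMM replicate 2 or 3 or sham replicate 2 or 3. Over all 438 rows, those called at 6 weeks were 74 with every array. They were 166 without sham 6 weeks replicate 1 and 20 without DMM 6 weeks replicate 2.

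With the array pattern score in the fit, the 3p arms kept positive differences, 0.37 to 0.63 at 1 week and 0.38 to 0.65 at 6 weeks. The 5p arms did not keep 1 sign, with -0.22 to 0.67 at 1 week and -0.37 to 0.24 at 6 weeks. None of the 438 rows was called in that limma fit, and 12 and 21 rows had an unadjusted p under 0.05 at 1 and 6 weeks. Within groups the slope on the score was below 0 for all 6 5p arms in cartilage, as for 45.2% of rows. It ran from -0.54 ± 0.13 (SE) for miR-497a-5p to -0.05 ± 0.15 for miR-322-5p per unit of score. Slopes were also small beside their SE for miR-16-5p (-0.10 ± 0.16) and miR-15a-5p (-0.14 ± 0.13). For the 3p arms the slope was 0.06 to 0.10, with SE of 0.15 to 0.20, and the median over all rows was 0.01.

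Listed markers of cartilage, blood, muscle and endothelial cells were also summed in each cartilage group. The summed log2 signal of the 4 cartilage markers was 13.61 to 13.85 in DMM and 13.99 to 14.06 in sham cartilage at 6 weeks, without overlap. Of all single rows, 18.0% lay apart in this direction. At 1 week the cartilage marker sum was 13.69 to 14.03 in DMM and 13.94 to 14.22 in sham cartilage. The summed log2 signal of the erythroid markers measured in cartilage (2 of 4 listed, miR-451a and miR-486a-5p) was 7.75 to 8.55 in DMM and 8.50 to 10.2 in sham cartilage at 6 weeks. The leukocyte markers (3 of 5 listed) summed to 8.00 to 8.52 in DMM and 8.64 to 9.79 in sham cartilage at 6 weeks, also without overlap. At 1 week the erythroid sums were 7.58 to 7.99 in DMM and 7.41 to 8.27 in sham cartilage, and the leukocyte sums 8.21 to 8.69 and 8.27 to 8.78. The 4 muscle markers, all measured, summed to 7.51 to 7.82 in DMM and 7.76 to 8.82 in sham cartilage at 1 week, and to 7.61 to 9.27 and 7.75 to 8.57 at 6 weeks. The 1 endothelial marker measured, miR-126a-3p, was 5.36 to 7.24 in DMM and 5.82 to 6.37 in sham cartilage at 1 week. At 6 weeks it was 5.20 to 6.30 and 5.93 to 7.18. Called at 6 weeks in the limma fit were 0 of the 4 cartilage markers, 2 of 2 erythroid, 2 of 3 leukocyte, 1 of 4 muscle and 0 of 1 endothelial, where 16.9% of rows were. At 1 week 1 of 4 cartilage and 1 of 4 muscle markers were called, where 27.9% of rows were. None of the erythroid, leukocyte or endothelial markers was called at 1 week. The part of these markers in the differences of either group of arms was not tested.

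miR-16-2-3p, the only other arm of the family's hairpins with values, ran with the member 3p arms in cartilage. It had 5.63, 5.76 and 5.97 in DMM cartilage at 1 week, against 5.44, 5.45 and 5.31 in sham cartilage, and 5.67, 5.89 and 5.83 in DMM cartilage at 6 weeks, against 5.71, 5.36 and 5.33 in sham cartilage. The groups were apart at 1 week (0.39 ± 0.13, SE) and overlapped at 6 weeks through sham replicate 1 (0.33 ± 0.13, SE). miR-15b-3p, miR-322-3p, miR-497a-3p, miR-195b and miR-497b are not analysed here.

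miR-324-3p and miR-103-1-5p also hold GUGCUGC and were picked out after their values were seen. For miR-324-3p the cartilage differences were -0.13 ± 0.08 at 1 week and -0.07 ± 0.08 at 6 weeks (SE), below 0 where the family's 3p arms were above it, and its bone differences were -0.05 ± 0.12 and 0.04 ± 0.12 (SE). miR-103-1-5p, measured in bone alone, had 0.12 ± 0.16 and 0.26 ± 0.16 (SE) there, and neither row passed in bone (adjusted p = 0.999 and 0.998 at 1 and 6 weeks for both, limma).

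The difference between arms was taken within each array as log2 of the 5p signal minus log2 of the 3p signal. Its absolute size depends on the probes, and only its shift between groups was read. For miR-195a it was 2.10 ± 0.30 in DMM and 3.22 ± 0.12 in sham cartilage at 1 week (SD, n = 3 each), and 2.09 ± 0.43 in DMM and 3.32 ± 0.43 in sham cartilage at 6 weeks. For miR-16-1, set against miR-16-5p, it was 3.57 ± 0.42 in DMM and 4.55 ± 0.17 in sham cartilage at 1 week, and 3.59 ± 0.09 in DMM and 4.57 ± 0.40 in sham cartilage at 6 weeks. For miR-15a it was 3.50 ± 0.36 in DMM and 4.21 ± 0.18 in sham cartilage at 1 week, and 3.48 ± 0.12 in DMM and 4.48 ± 0.33 in sham cartilage at 6 weeks. In all 6 of these sets the highest DMM array was below the lowest sham array. Of the 39 hairpin names with both arms measured in cartilage, 17.9% had DMM arrays all below sham arrays at 1 week and 17.9% at 6 weeks, and 20.5% and 25.6% had them all above. The family's separation follows from the choice of its members and is a description.

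Among the same 39 hairpins the 3 of the family had the lowest arm differences in DMM effect at both weeks, which restates how the members were chosen. The 5p effect minus the 3p effect was -1.12 for miR-195a, -0.99 for miR-16-1 and -0.71 for miR-15a at 1 week, and -1.23, -0.97 and -1.01 for the same hairpins at 6 weeks. The next hairpin at 6 weeks was miR-1839, at -0.76. At the other end of the order stood miR-466i, at 2.35 and 1.76, and miR-574, at 2.16 and 1.45, both farther from 0 than any family hairpin. Both arms of a hairpin had the same sign of DMM effect in 22 of the 39 at 1 week and in 21 at 6 weeks.

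**Figure D2:**
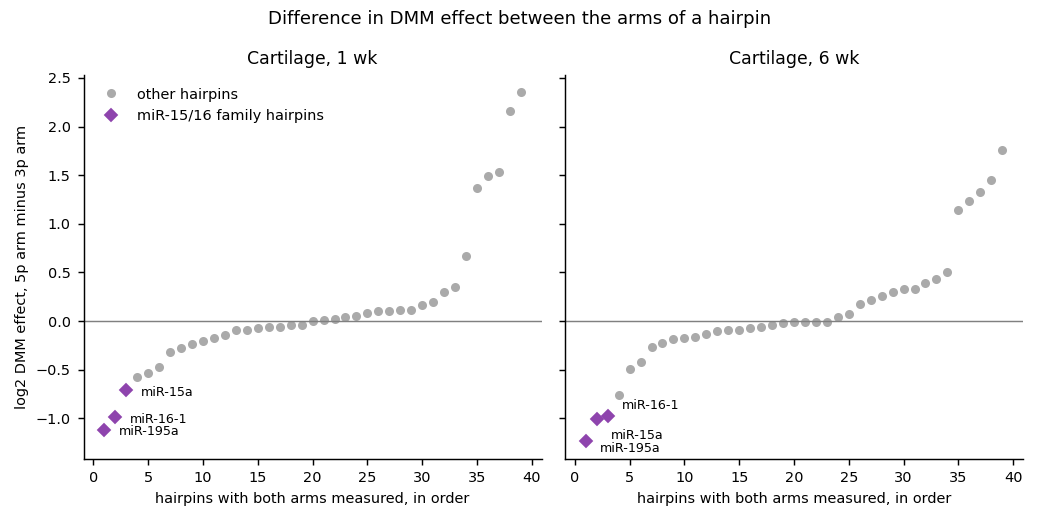
DMM effect of the 5p arm minus that of the 3p arm (log2, vertical axis) for the 39 hairpins with both arms measured in cartilage, in rising order, at 1 and 6 weeks. The family hairpins miR-195a, miR-16-1 and miR-15a (diamonds) are the 3 lowest in each panel, between -1.23 and -0.71, as their choice by these values implies; miR-466i is the highest, at 2.35 and 1.76.

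The rows outside the family closest to the arms' profiles over the 12 cartilage arrays were found by the root mean square (RMS) distance between mean-centred log2 values. The nearest to the 5p mean were miR-130a-3p at 0.090, miR-107-3p at 0.091 and miR-136-5p at 0.095, where the median over all rows was 0.314. miR-107-3p carries the family's seed letters too, but at bases 1 to 7, as its sequence shows with these letters in capitals:
miR-107-3p: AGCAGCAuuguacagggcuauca

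Nearest to the 3p mean were miR-7038-5p at 0.042, miR-7030-5p at 0.049 and miR-7082-3p at 0.055, where the median was 0.426. Among the member 3p arms, miR-16-1-3p was at 0.041, miR-15a-3p at 0.084 and miR-195a-3p at 0.100 from their mean, which includes them. miR-7038-5p, outside the family, was thus as close to the 3p mean as its closest member, and its cartilage differences were 0.58 and 0.52. Among the 109 cartilage rows with the lowest mean signals (5.34 to 5.79), which include miR-322-5p, miR-16-1-3p and miR-15a-3p, 18.3% were called higher and 9.17% lower at 1 week, and 10.1% and 5.50% at 6 weeks. Among the next 110 rows (5.79 to 6.25), which include miR-195a-3p, 9.09% were called higher and 18.2% lower at 1 week, and 5.45% and 9.09% at 6 weeks.

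Bone, whose DMM differences were not the ones that chose the members, was tested for the same contrast. The choice was still made with earlier results of these data known. No member passed the threshold at 1 or 6 weeks, and neither did any of the 490 rows in limma's test (0% called at both weeks, with 3 and 2 rows at an unadjusted p under 0.05). The 5p differences were -0.38 to 0.03 at 1 week and -0.10 to 0.13 at 6 weeks, and the 3p differences -0.05 to -0.02 and 0.09 to 0.16. Adjusted p-values were 0.999 for all members at 1 week and 0.998 at 6 weeks. DMM and sham groups overlapped for all 9 members at both weeks; among all rows, groups were apart for 0.816% with DMM higher and 0.612% with DMM lower at 1 week, and for 0.204% each way at 6 weeks.

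The bone intervals for the 3p arms were narrower than those for the 5p arms. For miR-195a-3p the 95% interval of DMM minus sham ran from -0.40 to 0.32 at 1 week and from -0.20 to 0.52 at 6 weeks. For miR-16-1-3p it ran from -0.39 to 0.28 and from -0.20 to 0.47. For miR-15a-5p it ran from -1.07 to 0.33 and from -0.80 to 0.61, and for miR-15b-5p from -0.81 to 0.21 and from -0.38 to 0.65.

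A fit with array weights, in which bone arrays that stray from their group count less, gave other calls. There miR-16-1-3p was higher in DMM bone at 6 weeks by 0.39 ± 0.11 (SE, limma adjusted p = 0.0414) and miR-195a-3p by 0.43 ± 0.12 (SE, limma adjusted p = 0.0421), and 11.0% of the 490 rows passed. The weights ran from 0.187 for sham 1 week replicate 1 to 6.21 for DMM 1 week replicate 4, and in the 6-week sham group replicate 4 had 3.39 and the other arrays 0.302 to 0.968. The bone calls of these 2 members thus depend on how much each mouse counts.

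miR-195a-3p shows the bone arrays behind these intervals. It had 5.97, 5.77, 6.03 and 5.97 in DMM bone at 1 week, against 6.12, 5.86, 5.78 and 6.17 in sham bone. Its 6-week values were 6.38, 6.31, 6.40 and 6.62 in DMM bone, against 6.22, 6.10, 6.76 and 5.98 in sham bone. DMM arrays lay within the sham range at each week, except for 1 DMM array at 5.77 at 1 week.

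miR-15a-5p had 9.80, 9.40, 9.17 and 9.37 in DMM bone at 1 week, against 8.96, 9.59, 9.72 and 10.94 in sham bone. The later arrays, at 6 weeks, had 9.33, 9.92, 9.05 and 9.24 in DMM bone, against 9.79, 9.82, 9.29 and 9.04 in sham bone. Sham 1 week replicates 1 and 4 were the lowest and highest arrays of their group for miR-15a-5p and again for miR-322-5p, at 6.60 and 9.02. The 1-week difference of miR-15a-5p was -0.37 ± 0.33 (SE) with all arrays, -0.65 without sham replicate 1 and 0.01 without sham replicate 4.

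miR-15b-5p had 11.10, 11.16, 11.37 and 11.13 in DMM bone at 1 week, against 11.21, 11.57, 11.36 and 11.81 in sham bone. After 6 weeks it had 11.36, 11.92, 10.80 and 11.08 in DMM bone, against 11.63, 10.60, 11.09 and 11.30 in sham bone. The groups overlapped at each week. The differences were -0.30 ± 0.24 and 0.13 ± 0.24 (SE, n = 4 each).

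**Figure D3:**
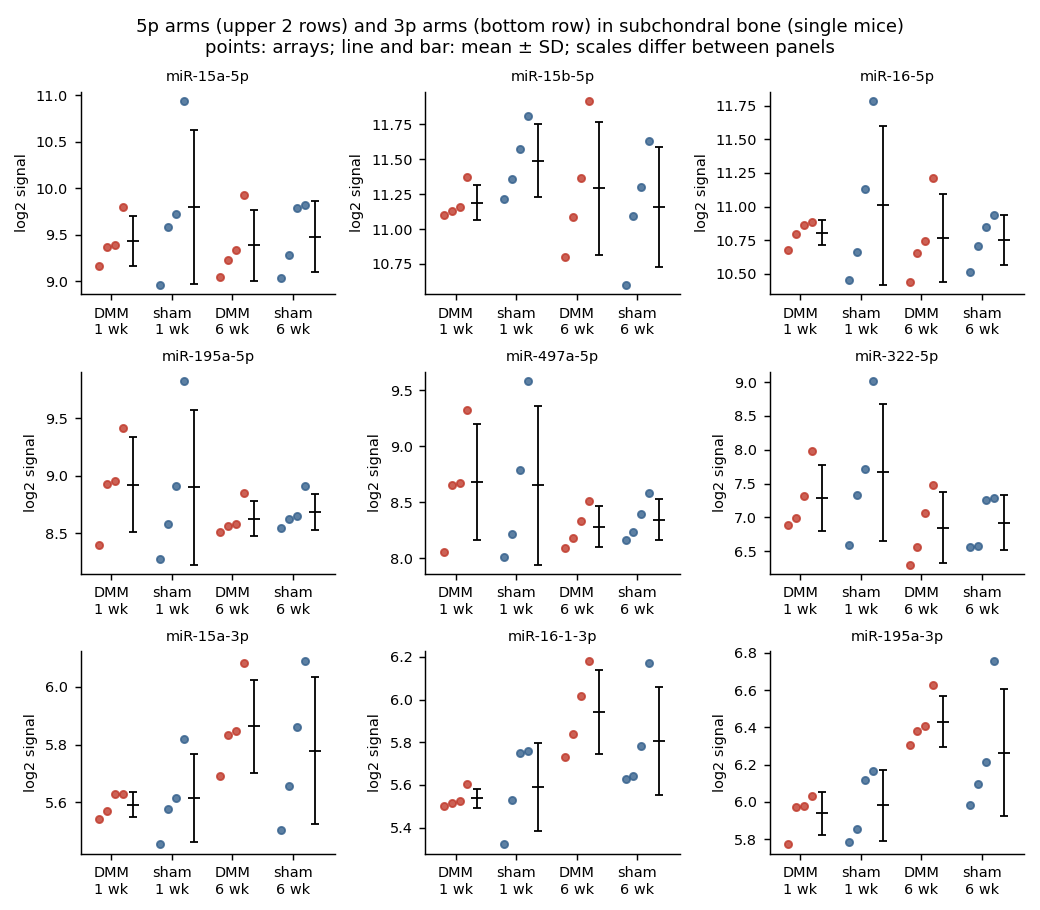
Log2 signal (vertical axes, scales differ) of the 6 5p arms in the upper rows and the 3 3p arms in the bottom row, for DMM and sham bone at 1 and 6 weeks. Points are arrays of single mice, and the line and bar are the mean ± SD; DMM and sham points overlap for all 9 members at both weeks.

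The change of the bone DMM effect from 1 to 6 weeks was tested as an interaction. No member and none of the 490 rows passed in limma's test (0%, with 1 row at an unadjusted p under 0.05). The change was -0.09 to 0.43 over the 5p arms and 0.11 to 0.21 over the 3p arms, where the median over all rows was 0.08.

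**Figure D4:**
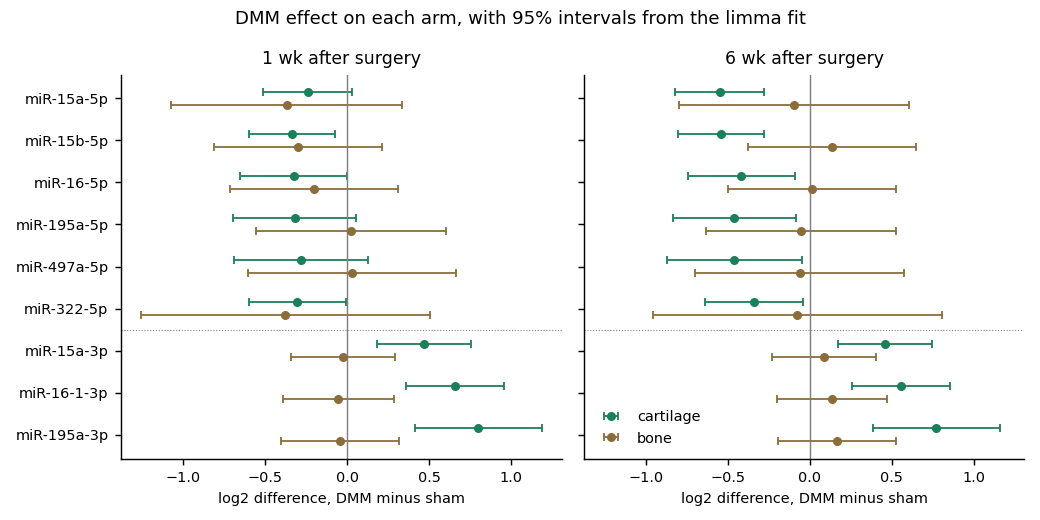
DMM minus sham on the log2 scale (horizontal axis) for each member in cartilage and bone at 1 and 6 weeks, with 95% intervals from the limma fit. The cartilage 3p arms lie at 0.46 to 0.80 and the cartilage 5p arms at -0.55 to -0.24, and every bone interval includes 0.

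The shift between arms was tested in bone with a two-sided exact permutation test of 4 against 4 arrays, whose smallest possible p is 0.0286. For miR-15a the within-array difference was 3.84 ± 0.29 in DMM and 4.19 ± 0.73 in sham bone at 1 week (SD, n = 4 each), a shift of -0.35 (exact p = 0.429), and -0.18 at 6 weeks (exact p = 0.629). For miR-16-1 the shifts were -0.15 and -0.12 (exact p = 0.743 and 0.657). For miR-195a they were 0.07 and -0.22 (exact p = 0.886 and 0.4). Adjusted over the 6 tests every p was 0.886. Of the 6 shifts 5 were below 0. Among the 55 hairpin names with both arms measured in bone, ranked from the lowest, shifts below 0 reached place 42 at 1 week and place 29 at 6 weeks. Nothing is read from the signs.

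Among the 55 hairpin names with both arms measured in bone, counted from the lowest arm difference in DMM effect, miR-15a stood at place 4, miR-16-1 at 19 and miR-195a at 46 at 1 week. At 6 weeks miR-195a stood at place 4, miR-15a at 5 and miR-16-1 at 14. The order of the 3 family hairpins among themselves was thus not kept between weeks.

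**Figure D5:**
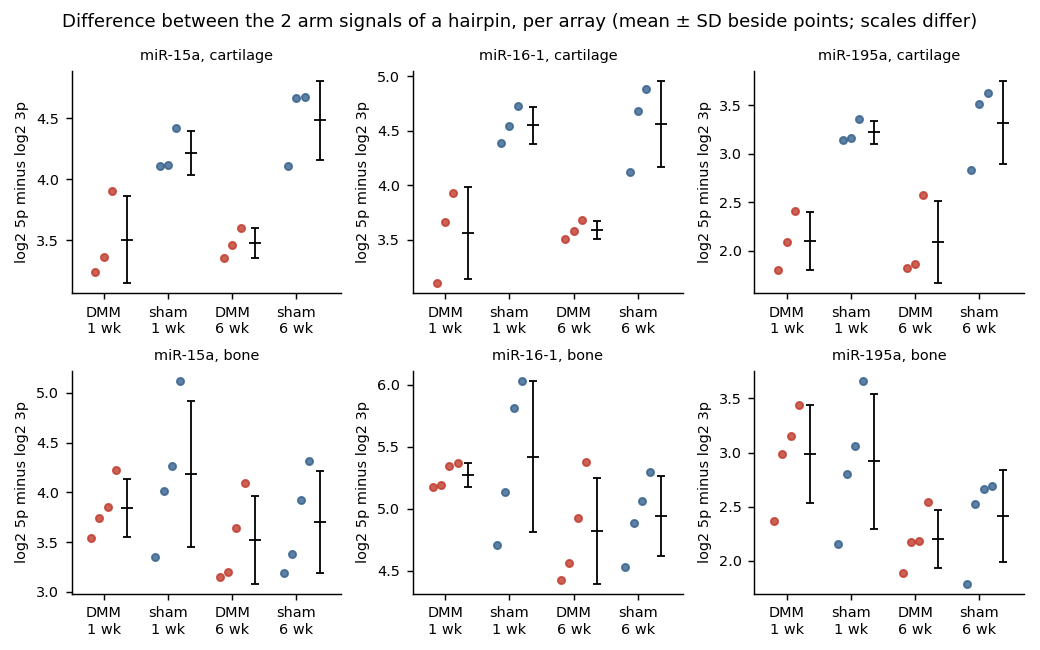
Log2 signal of the 5p arm minus that of the 3p arm on each array (vertical axes, scales differ), for miR-15a, miR-16-1 and miR-195a in cartilage (upper row) and bone (lower row); the line and bar are the mean ± SD. In cartilage every DMM array lies below every sham array of its week, as it did for 17.9% of the measured hairpins at each week; in bone the groups overlap.

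Time after sham surgery was compared next. Cartilage shares its sham arrays with the contrast that chose the members, so its values and calls here are a description. In cartilage, 6 weeks minus 1 week was -0.03 to 0.32 over the 5p arms and -0.03 to 0.04 over the 3p arms. No member passed, and 1 of the 438 rows did (0.228%) in limma's test. The largest was miR-15b-5p, at 9.06 ± 0.06 at 6 weeks and 8.74 ± 0.08 at 1 week (SD, n = 3 each), a difference of 0.32 ± 0.12 (SE, adjusted p = 0.219, limma) between groups that did not overlap, as was so for 12.8% of rows with 6 weeks higher. With array weights miR-15a-5p passed, at 0.34 ± 0.10 (SE, limma adjusted p = 0.0352), where 15.5% of rows did. Between the DMM groups, 6 weeks minus 1 week was -0.10 to 0.12 for the 5p arms and -0.13 to 0.01 for the 3p arms.

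In sham bone all 6 of the 5p arms had lower means at 6 weeks than at 1 week and all 3 of the 3p arms higher means, and none passed. Of all 490 rows, 58.2% had lower and 41.8% higher means at 6 weeks, and nothing is read from these directions. The 5p differences were -0.74 to -0.22, with a median of -0.31, and the 3p differences 0.16 to 0.28, with a median of 0.22, where the median over all 490 rows was -0.09. Adjusted p-values of the members were 0.414 to 0.679 in limma's test, in which none of the 490 rows passed (0%) and 54 had an unadjusted p under 0.05. miR-322-5p differed most, at 6.92 ± 0.41 at 6 weeks and 7.67 ± 1.01 at 1 week (SD, n = 4 each). With array weights it passed, at -0.94 ± 0.27 (SE, limma adjusted p = 0.0177), where 28.6% of rows did. Without sham 1 week replicate 4, miR-15a-5p, miR-195a-5p and miR-497a-5p turned to 0.06, 0.09 and 0.01.

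The same contrast between the DMM groups of bone left the 3p arms apart. miR-195a-3p had 6.31 to 6.62 at 6 weeks and 5.77 to 6.03 at 1 week, a difference of 0.49 ± 0.17 (SE). All 3 of the 3p arms had non-overlapping groups with the 6-week arrays higher, against 6.94% of the 490 rows. Their differences were 0.27 to 0.49 with adjusted p-values of 0.212 to 0.325, so none passed in limma's test; no row did (0%), and 95 had an unadjusted p under 0.05. With array weights all 3 passed, at 0.35 to 0.55, where 55.9% of rows did. The 5p arms had -0.44 to 0.10.

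Within groups, all 6 of the 5p arms of bone had negative slopes on the array pattern score, from -0.52 ± 0.10 (SE) per unit for miR-322-5p to -0.21 ± 0.08 for miR-16-5p. Of all bone rows, 48.6% had slopes below 0. The 3p arms had slopes of 0.04 to 0.10. The score covers 62.5% of the variance of bone arrays within groups, over 349 rows without the family. Its slopes thus describe how the arms move with the main difference between bone arrays. Every bone array held 1 mouse, so differences between mice and in array quality cannot be told apart. The score was -0.84 to 1.60 in sham bone at 6 weeks and -1.57 to 1.59 in sham bone at 1 week.

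In bone, the rows outside the family nearest to the 5p mean over 16 arrays were let-7g-5p at an RMS distance of 0.082, miR-107-3p at 0.118 and miR-362-3p at 0.133, where the median over all rows was 0.472. Nearest to the 3p mean were miR-700-5p at 0.042, let-7j at 0.046 and miR-7030-5p at 0.052, where the median was 0.407. miR-107-3p and miR-7030-5p were among the nearest 3 in both tissues. The distance of miR-15b-5p from the 5p mean was 0.326 in bone and 0.131 in cartilage, and that of miR-322-5p 0.293 and 0.136.

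The miR-322 cluster on chromosome X was represented by 1 of 9 listed arms besides miR-322-5p. This was miR-503-5p in bone, with DMM minus sham differences of -0.21 ± 0.35 at 1 week and -0.15 ± 0.35 at 6 weeks (SE, n = 4 each; adjusted p = 0.999 and 0.998, limma).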

How the data were processed

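Values are log2 signals from the table the authors deposited; the scale was inferred from their range, 4.08 to 16.7, and they were used without further scaling. The submitters' processing notes name limma 3.20.9; background correction, scaling and the row filter are steps not given in the sources used here. Each tissue had been filtered apart, with 359 rows shared, and a normalization common to both is not known. Detection values were not used here, and the number of arrays limits precision. Columns of sample values left unused numbered 0.

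A group-means model was fitted per tissue with limma 3.58.1 (R 4.3.3, jsonlite 2.0.0), with p-values adjusted by Benjamini-Hochberg over all rows and a threshold of 0.05. The code was run on simulated data with independent noise in every row. Those data lack the array pattern, so the run does not show how the fit behaves under it. Figures used Python 3.11.15, pandas 2.3.3 and matplotlib 3.10.9. The spread behind a p-value is that of pools for cartilage and of mice for bone. The members and lists were chosen with earlier results of these data known. Named are the 9 members, other arms of their hairpins and rows with their seed, members of the miR-322 cluster that pass in bone (otherwise counts), and per tissue the 3 outside rows nearest to each arm group. miR-503-5p, miR-324-3p and miR-103-1-5p were named after their values were seen, as were miR-1839, miR-466i and miR-574 for their places in the order of hairpins. RefSeq mature names matched 466 of the 569 rows and all 9 members. Alternatives were quantile normalization, 75th percentile centring, a robust prior with trend, array weights, dropping the rows under the median level, fits of only 2 groups, a replicate block in cartilage, the array pattern score as a covariate, and leaving out each array. Same-numbered cartilage arrays of DMM and sham correlated at -0.48 to 0.03 in their deviations from group means. With 3 arrays per group these correlations cannot show whether the numbers pair the arrays. The arrays were treated as unpaired, with the replicate block as the alternative.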

Additional observations from a re-analysis of the deposited data

How the results depend on the processing

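In cartilage the 6 5p arms stayed below 0 and the 3 3p arms above 0 at both weeks under every alternative that gave them a value, except that 5p arms had mixed signs with the array pattern score as a covariate. Leaving out rows below the median level removed the 3p arms and miR-322-5p. The counts moved more. At 1 week 5p arms called lower, 0 in the model as described, were 3 with quantile normalization, 2 with 75th percentile centring, 2 with array weights and 0 to 2 with an array left out; 3p arms called higher were 0 with the score. At 6 weeks 3p arms called were 2 with 75th percentile centring, 0 with only the 2 groups in the fit, 0 with the score and 0 to 3 with an array left out; 5p arms called were 6 with array weights, 1 with only the 2 groups, 0 with the score and 1 to 4 with an array left out. Array weights also gave 2 members past the threshold in bone at 6 weeks, 1 for sham in cartilage and 1 for sham in bone. With array weights all rows called were 172 and 189 of 438 in cartilage and 38 and 54 of 490 in bone for DMM against sham at 1 and 6 weeks, and 68 in cartilage and 140 in bone for sham; as described they were 122, 74, 0, 0, 1 and 0. The cause of these moves was not tested.

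With replicate number as a block in cartilage, 3p arms called higher were 3 at 1 week and 2 at 6 weeks and 5p arms called lower 0 and 2; all rows called were 93 against 122 without the block at 1 week and 43 against 74 at 6 weeks. The block changed no other call of a member.

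Some uncalled differences changed sign. For bone DMM minus sham at 1 week, 75th percentile centring gave 0.12 for miR-15a-3p, 0.086 for miR-16-1-3p and 0.096 for miR-195a-3p; quantile normalization gave 0.027 for miR-195a-3p and 0.030 for the arm shift of miR-16-1; array weights gave -0.080 for miR-195a-5p, -0.19 for miR-497a-5p, 0.038 for miR-15a-3p, 0.022 for miR-16-1-3p and 0.085 for miR-195a-3p. At 6 weeks array weights gave -0.25 for miR-15b-5p, quantile normalization -0.082 and 75th percentile centring -0.022 for miR-16-5p, and the score 0.020 for miR-195a-5p, 0.062 for miR-322-5p and 0.015 for miR-497a-5p. For sham cartilage, 6 minus 1 week, 75th percentile centring gave 0.010 for miR-16-5p and 0.0035 for miR-15a-3p; array weights 0.11 for miR-16-5p, 0.093 for miR-322-5p and -0.11 for miR-195a-3p; the score -0.16 for miR-195a-5p, -0.21 for miR-497a-5p, 0.019 for miR-15a-3p and 0.038 for miR-16-1-3p; quantile normalization 0.048 for miR-15a-3p and 0.040 for miR-16-1-3p.

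With an array left out, ranges that cross 0 were, for sham cartilage, -0.13 to 0.061 for miR-16-5p, -0.13 to 0.094 for miR-322-5p, -0.16 to 0.081 for miR-15a-3p, -0.18 to 0.084 for miR-16-1-3p and -0.18 to 0.21 for miR-195a-3p. For sham bone they were -0.60 to 0.058 for miR-15a-5p, -0.43 to 0.092 for miR-195a-5p and -0.52 to 0.0057 for miR-497a-5p. For bone DMM minus sham at 1 week they were -0.65 to 0.0093 for miR-15a-5p, -0.39 to 0.057 for miR-16-5p, -0.18 to 0.33 for miR-195a-5p, -0.73 to 0.074 for miR-322-5p, -0.19 to 0.34 for miR-497a-5p, -0.078 to 0.045 for miR-15a-3p, -0.14 to 0.0025 for miR-16-1-3p and -0.11 to 0.019 for miR-195a-3p. At 6 weeks they were -0.28 to 0.016 for miR-15a-5p, -0.075 to 0.30 for miR-15b-5p, -0.14 to 0.12 for miR-16-5p, -0.13 to 0.021 for miR-195a-5p, -0.28 to 0.11 for miR-322-5p, -0.14 to 0.017 for miR-497a-5p and -0.0066 to 0.19 for miR-15a-3p. Arm shifts in bone ranged from -0.37 to 0.022 for miR-15a at 6 weeks, -0.39 to 0.054 and -0.31 to 0.011 for miR-16-1 at 1 and 6 weeks, and -0.19 to 0.32 for miR-195a at 1 week.

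Cartilage groups hold 3 arrays of pools, so spread between mice was not measured there. miR-322-5p, miR-16-1-3p and miR-15a-3p sit near the low end of the signal range without detection values, and probe specificity between like arms was not tested.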
